A study of Mus musculus with 12 samples.

Results

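Conventional dendritic cells are defined by a small set of genes, and 10 of them were followed here in mouse marrow-derived dendritic cells exposed to γ-PGA nanoparticles, particles of the biodegradable polymer poly(γ-glutamic acid). They were the transcriptional regulators Spi1, Id2, Batf3 and Zbtb46, the cytokine receptor Flt3, and the surface molecules Xcr1, Itgae, Sirpa, Itgax and Dpp4. A probe belonged to the set where its RefSeq accession mapped to 1 of these symbols. All 10 genes had a probe, 15 of 41174 probes in all, and all 10 passed the filter on dim probes, among 18407 genes tested.

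Marrow of female mice aged 6 to 8 weeks was cultured in GM-CSF at 20 ng/ml, and the non-adherent or loosely adherent cells of day 7 were taken as immature dendritic cells. The 4 groups were cells labelled 0 h and cells kept with 300 µg/ml of γ-PGA nanoparticles for 6, 12 or 24 h, with 3 samples each, described by the design text as independent experiments. No untreated culture of 6, 12 or 24 h was among the samples, so exposure and time in culture cannot be told apart, and each p measures only the spread between these samples. The cells were not sorted, and in bulk RNA fewer cells of a type and less RNA per cell cannot be told apart.

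Conventional dendritic cells arise from marrow precursors that depend on the growth factor Flt3 ligand, and they present antigen to T cells. Type 1 cells need Irf8 and Batf3, carry XCR1 and often CD103 (Itgae), and are known for cross-presentation to CD8 T cells. Type 2 cells carry SIRPα (Sirpa) and lean on Irf4. Cultures made with GM-CSF alone, as these were, are known to hold macrophage-like cells and granulocytes beside dendritic cells.

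The series held 2 kinds of deposited values for the same 12 samples, and they went apart for the samples labelled 24 h. The scanner files gave spot intensities, used here as log2 minus the 75th percentile of the array, and the authors' value table gave a linear ratio for each probe, with the median of its 0 h columns as 1. Across the 18407 genes the changes of the sources correlated with Pearson's r of 0.73 at 6 h, 0.54 at 12 h and -0.07 at 24 h, a description over genes that are not independent. Scanner arrays labelled 24 h correlated at 0.991 with the arrays at 0 h and at 0.910 with those at 12 h. Columns labelled 24 h in the value table correlated at 0.896 with the columns at 12 h and at 0.742 with those at 6 h. Changes of the 10 genes are therefore given for each source. Marker levels, list sums and likeness of profiles are given for the arrays alone. What is said of 24 h holds for the arrays or columns that carry that label. Leaving these out of the fit changed none of the calls at 6 and 12 h for the 10 genes.

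The arrays lay on 3 slides, with 6 h replicate 1 beside the arrays at 0 h, 6 h replicates 2 and 3 beside 12 h replicates 1 and 2, and 12 h replicate 3 beside the arrays labelled 24 h. Spots well above background made up between 50.9% and 59.6% of an array. The median change over all genes was between -0.06 and 0.04 on the arrays and between 0.12 and 0.22 in the table. This covers 6, 12 and 24 h against 0 h (log2 scale).

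The labelled cell type was checked against marker lists. All 8 genes of the conventional dendritic cell core list were well above background on the 3 arrays at 0 h, and so were 8 of 9 measured type 1 markers and 7 of 8 type 2 markers. These lists overlap the 10 genes, so they are no separate check of them. Zbtb46, Flt3, Itgax and Dpp4 are in the core list, Batf3, Itgae and Xcr1 in the type 1 list and Sirpa in the type 2 list. Clec9a, a receptor for dead cells on type 1 cells, was not well above background on any array at 0, 6 or 12 h. It was well above it on the 3 arrays labelled 24 h. Its mean level there was -3.91 against -4.33 at 0 h, and this difference did not pass the test (limma adjusted p = 0.213). Its table ratios were 2.79, 3.44 and 3.19 in the columns labelled 24 h, against 1, 0.935 and 1.00 at 0 h. Markers of other cells were present as well, with 9 of 9 for macrophages, 6 of 6 for monocytes, 9 of 9 for neutrophils and their precursors, 5 of 7 for mast cells and basophils, 6 of 7 for plasmacytoid dendritic cells, 3 of 5 for B cells and 4 of 6 for T and NK cells. Siglech of the plasmacytoid list, Pax5 of the B-cell list and Ncr1 of the T and NK list were below that level on all 12 arrays.

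Sums of some of these lists shifted with exposure, and each sum mostly reads the brightest genes of its list. Monocyte markers summed to between 25.0 and 25.4 times the array's 75th percentile at 0 h, 5.79 to 6.05 at 6 h, 16.5 to 17.9 at 12 h and 23.0 to 24.6 on the arrays labelled 24 h. Macrophage markers summed to between 177.5 and 177.8 at 0 h, 152.5 to 169.2 at 6 h, 288.04 to 317.7 at 12 h and 174.9 to 183.2 at 24 h. Neutrophil and precursor markers ranged from 296.4 to 304.6, 283.4 to 326.8, 335.9 to 383.8 and 296.9 to 305.1 in the same order of times. The plasmacytoid list ranged from 35.98 to 36.4, 79.01 to 92.3, 200.1 to 237.6 and 35.2 to 36.7, with Bst2, a membrane protein found on many cells, making up most of each sum, and the T and NK list from 1.09 to 1.17, 0.457 to 0.605, 0.42 to 0.555 and 1.14 to 1.18. Mast cell and basophil markers stayed between 4.11 and 4.96 and B-cell markers between 0.813 and 1.55 over all 12 arrays.

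The genes of a list did not all go with its sum. A gene is called changed here where it passes 2-fold and limma gives an adjusted p under 0.05, with Benjamini-Hochberg adjustment over the 18407 genes. On the arrays at 6 h, 4 of 6 monocyte, 6 of 9 macrophage, 3 of 9 neutrophil and 3 of 5 tested T and NK markers were called lower and none higher, against 15.9% lower and 10.2% higher of all genes. The value table at 6 h had 2 monocyte, 2 macrophage, 5 neutrophil and 3 T and NK markers lower, against 11.8% of all genes. There 1 marker each of the monocyte, macrophage, and T and NK lists was higher, against 13.3%. At 12 h, 3 monocyte markers were lower and 1 higher, 5 macrophage markers lower and 2 higher, 1 neutrophil marker lower and 4 T and NK markers lower, against 16.9% lower and 13.7% higher of all genes. The value table at 12 h had 3 monocyte, 6 macrophage, 6 neutrophil and 3 T and NK markers lower, against 12.1% of all genes. It had 1 monocyte and 1 macrophage marker higher, against 15.7%. Of 6 plasmacytoid markers tested, 2 were higher and 2 lower on the arrays at 6 h and 3 higher and 1 lower at 12 h, against the array shares given above. Bst2 was at 1.32 and 2.70 there and Spib, an ETS factor, at -1.74 and -2.63 (log2 changes at 6 and 12 h). The value table had 3 plasmacytoid markers higher and none lower at either time, against the table shares given above. Spib lay above 0 h there, as given below. In the columns labelled 24 h of the value table, 9 of 9 neutrophil markers, 5 of 9 macrophage markers, 4 of 5 tested mast cell and basophil markers and 3 of 6 monocyte markers were called lower than at 0 h, against 13% of all genes. There 1 marker each of the macrophage, mast cell and basophil, and monocyte lists was higher, against 13.3% of all genes. Dendritic cell lists had calls in these columns too. The type 2 list had 5 of 8 lower and 1 higher, the core list 3 of 8 lower and 1 higher, and the type 1 list 2 of 9 lower and 3 higher. The plasmacytoid list had 2 of 6 higher and none lower, and the T and NK list 1 of 5 lower and none higher. Cd2, Cd3g and Klrb1c of the T and NK list and Cd163 of the macrophage list were dim. They were not well above background on any array at 6 or 12 h, so array calls of these genes rest on spots below background there. Klrb1c was well above it on 1 array at 0 h. The part of the cells of these lists in the results that follow was not tested.

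The RefSeq table of mouse promoters held a window for 7 of the 10 genes, reaching from 250 bases before the start site to 50 bases after it (build GRCm38.p6). Those of 5 genes are printed because they hold the matches to motifs of dendritic cell regulators, or, for Id2, because the gene rose in both sources. Capitals mark the AP-1 type motif TGANTCA, bound by BATF and JUN proteins, in Zbtb46 and Itgax, and the PU.1 type motif GAGGAA in Batf3 and, read on the other strand, in Dpp4.
Zbtb46 (chr2:181424339-181424638, minus strand): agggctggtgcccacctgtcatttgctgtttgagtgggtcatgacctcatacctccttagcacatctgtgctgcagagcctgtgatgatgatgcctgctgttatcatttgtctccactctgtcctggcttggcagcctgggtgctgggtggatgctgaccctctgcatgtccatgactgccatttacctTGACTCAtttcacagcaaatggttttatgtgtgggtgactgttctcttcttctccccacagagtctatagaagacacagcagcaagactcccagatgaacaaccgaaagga
Itgax (chr7:128129300-128129599, plus strand): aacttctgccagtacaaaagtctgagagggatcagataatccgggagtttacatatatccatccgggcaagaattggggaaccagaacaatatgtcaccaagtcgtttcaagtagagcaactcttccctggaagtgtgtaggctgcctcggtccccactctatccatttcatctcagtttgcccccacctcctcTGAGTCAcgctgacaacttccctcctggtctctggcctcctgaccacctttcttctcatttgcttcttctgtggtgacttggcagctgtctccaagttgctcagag
Batf3 (chr1:191098164-191098463, plus strand): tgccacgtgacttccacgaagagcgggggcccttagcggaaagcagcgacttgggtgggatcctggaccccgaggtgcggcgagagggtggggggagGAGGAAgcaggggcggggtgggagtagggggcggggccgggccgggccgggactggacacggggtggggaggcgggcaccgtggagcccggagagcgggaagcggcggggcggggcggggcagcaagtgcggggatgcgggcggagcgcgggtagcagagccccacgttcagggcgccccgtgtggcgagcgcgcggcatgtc
Dpp4 (chr2:62412182-62412481, minus strand): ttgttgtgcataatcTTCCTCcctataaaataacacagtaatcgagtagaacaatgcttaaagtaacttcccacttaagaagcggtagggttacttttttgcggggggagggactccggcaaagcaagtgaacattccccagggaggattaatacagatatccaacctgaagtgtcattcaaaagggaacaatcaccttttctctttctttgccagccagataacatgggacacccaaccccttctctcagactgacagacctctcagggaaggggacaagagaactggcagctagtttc
Id2 (chr12:25096043-25096342, minus strand): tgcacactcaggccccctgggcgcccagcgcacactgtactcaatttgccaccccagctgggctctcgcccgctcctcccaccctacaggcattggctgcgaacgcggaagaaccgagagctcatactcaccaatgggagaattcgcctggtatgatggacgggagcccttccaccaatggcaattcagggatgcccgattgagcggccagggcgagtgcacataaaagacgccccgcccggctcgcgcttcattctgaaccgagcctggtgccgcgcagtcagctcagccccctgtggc

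Both strands were searched for 5 motifs, and positions count from 0 at the start site. TGANTCA lay at -61 of Zbtb46 and at -56 of Itgax, in 2 of 7 windows against 7.81% of the 32851 windows in the table. GAGGAA lay at -153 of Batf3 and at -235 of Dpp4, in 2 of 7 windows against 28.3%. All 7 windows held an E-box CANNTG, the site of the E proteins that Id2 restrains, as did 72.3% of the windows in the table, and Zbtb46 held 6 of them. The composite ETS-IRF site of PU.1 with IRF factors and an NF-κB type site were in none of the 7 windows, against 2.72% and 0.411% of all windows. The printed start of Zbtb46 lies inside the annotated gene. These matches describe letters in the windows and say nothing of binding.

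Exposure was followed over time to ask which of these genes changed after the particles were added. Calls are by the threshold given above. At 6 h against 0 h, 3 of the 10 genes rose (Zbtb46, Id2 and Sirpa) and 1 fell (Itgae) on the arrays, where 26.1% of all genes were called. The value table had 3 higher (Zbtb46, Id2 and Flt3) and 2 lower (Itgae and Dpp4), where 25% of all genes were called. Zbtb46 and Id2 were thus higher and Itgae lower by either source at 6 h.

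At 12 h against 0 h the same 4 genes were called on the arrays, where 30.6% of all genes were called. The table called Id2 and Flt3 higher and Itgae lower, against 27.8% of all genes. On the arrays labelled 24 h none of the 10 was called, against 0.837% of all genes (0.695% higher and 0.141% lower). There limma gave 2 of the 10 an unadjusted p under 0.05 and none an adjusted one. The table's columns labelled 24 h had Id2 and Flt3 higher and Itgae and Dpp4 lower than 0 h, against 26.3% of all genes.

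**Figure D1:**
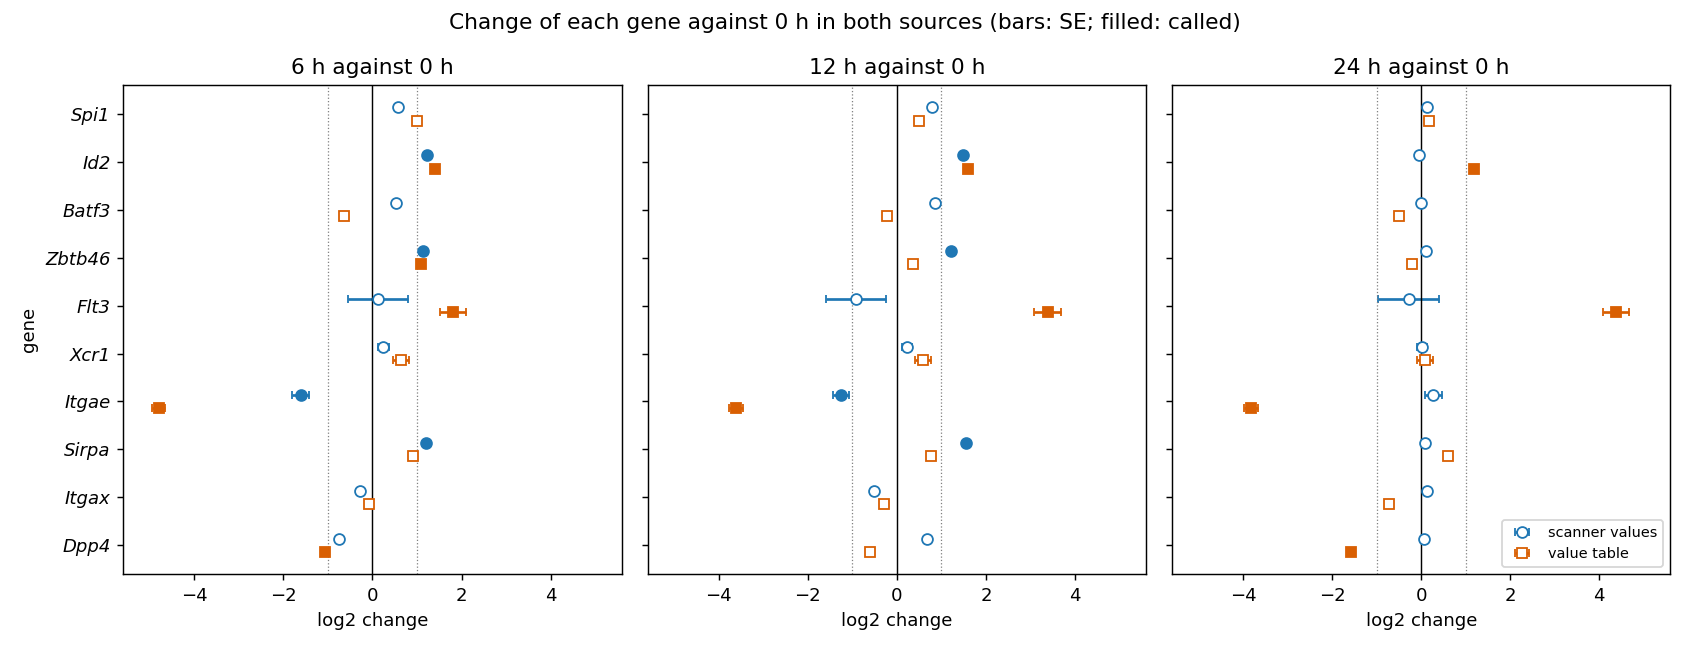
Log2 change of each of the 10 genes against 0 h at 6, 12 and 24 h (x axis), with circles for the scanner values and squares for the value table. Bars are SE from limma (n = 3 per group), filled symbols are called, and dotted lines mark 2-fold. Id2 was filled in both sources at 6 and 12 h, Itgae lay left of 0 in both at those times, and Flt3 lay at 4.38 in the table against -0.29 on the arrays in the panel labelled 24 h.

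The median change of the 10 genes was 0.39 at 6 h, 0.74 at 12 h and 0.07 at 24 h on the arrays, and 0.77, 0.43 and -0.06 in the table (log2 scale). Over all genes the medians were -0.06, -0.03 and 0.04 on the arrays and 0.14, 0.22 and 0.12 in the table. By the moderated F-test over the 3 times, Zbtb46, Id2, Itgae and Sirpa changed on the arrays, where 36.1% of all genes did. The same test called Zbtb46, Id2, Flt3, Itgae and Dpp4 in the table, against 36.9% of all genes.

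Smaller shifts were common. The 3 arrays at 6 h lay all above or all below the 3 arrays at 0 h for 9 of the 10 genes (74.1% of all genes), and the same held for 8 at 12 h (79.3%) and 4 at 24 h (44.5%). Table columns were apart from 0 h for 9 genes at 6 h (72.3%), 10 at 12 h (77.2%) and 8 at 24 h (78.1%).

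The 10 genes are taken below by role, from the regulators to the receptors and the surface enzyme. Levels on the arrays are log2 values relative to the array's 75th percentile, and levels of different probes are not compared. Table values are linear ratios.

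Spi1 encodes PU.1, an ETS factor needed for myeloid and dendritic cell development. Its levels were 0.75, 0.81 and 0.79 at 0 h, 1.33, 1.39 and 1.34 at 6 h, 1.56, 1.53 and 1.66 at 12 h, and 0.84, 0.97 and 0.95 on the arrays labelled 24 h. No group overlapped another, and 12 h was the highest. The change was 0.57 ± 0.05 at 6 h and 0.80 ± 0.05 at 12 h (log2 ± SE, n = 3 in each group, limma adjusted p = 2.75e-06 and 1.62e-07), short of 2-fold at both times. Its table ratios were 0.868, 1 and 1.14 at 0 h, 2.14, 1.91 and 1.92 at 6 h, 1.45, 1.35 and 1.41 at 12 h, and 1.10, 1.16 and 1.14 at 24 h. Here 6 h was the highest and 24 h overlapped 0 h. The 6 h change of 1.00 ± 0.09 (limma adjusted p = 4.06e-06) missed 2-fold by little, and it passed without 0 h replicate 3 (1.09), 6 h replicate 2 (1.02) or 6 h replicate 3 (1.02).

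Id2 encodes a helix-loop-helix protein that holds E proteins off DNA and is needed for type 1 conventional dendritic cells. Its brighter probe read 5.11, 5.13 and 5.18 at 0 h, 6.51, 6.24 and 6.38 at 6 h, 6.62, 6.71 and 6.54 at 12 h, and 5.07, 5.09 and 5.11 on the arrays labelled 24 h. All arrays at 6 and 12 h lay above those at 0 h, and those labelled 24 h overlapped 0 h. Id2 rose 2.35-fold at 6 h (log2 change 1.23 ± 0.07 SE, n = 3 in each group, limma adjusted p = 7.28e-08) and 2.79-fold at 12 h (1.48 ± 0.07, limma adjusted p = 1.42e-08).

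The deposited ratios of Id2 were 0.984, 1 and 1.02 at 0 h, 2.79, 2.57 and 2.62 at 6 h, 3.17, 3.1 and 2.80 at 12 h, and 2.26, 2.27 and 2.29 at 24 h. Every later column lay above 0 h, and 24 h lay below 6 and 12 h. Id2 rose 2.66-fold at 6 h, 3.02-fold at 12 h and 2.27-fold at 24 h in the table (limma adjusted p = 6.24e-09, 2.13e-09 and 2.07e-08). Its second probe gave log2 changes of 1.43 and 1.72 on the arrays at 6 and 12 h, and of 1.46, 1.48 and 0.93 in the table at 6, 12 and 24 h, the last below 2-fold. Quantile normalization of the arrays took the brighter probe below 2-fold, with changes of 0.87 at 6 h and 0.88 at 12 h.

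Batf3 encodes an AP-1 family factor that acts with Irf8 in type 1 conventional dendritic cells. Its levels on the arrays were 2.81, 2.83 and 2.88 at 0 h, 3.43, 3.27 and 3.44 at 6 h, 3.78, 3.61 and 3.75 at 12 h, and 2.93, 2.79 and 2.83 at 24 h. Arrays at 6 and 12 h were above 0 h without overlap, and 12 h was the highest. The change was 0.53 ± 0.06 at 6 h and 0.87 ± 0.06 at 12 h (log2 ± SE, n = 3 in each group, limma adjusted p = 3.12e-05 and 6.18e-07), below 2-fold. Batf3 ratios in the table were 1, 0.944 and 1.14 at 0 h, 0.652, 0.663 and 0.659 at 6 h, 0.878, 0.905 and 0.860 at 12 h, and 0.716, 0.698 and 0.753 at 24 h. There every later column lay below 0 h, the opposite side from the arrays at 6 and 12 h. The table change was -0.64 ± 0.07 at 6 h, -0.22 ± 0.07 at 12 h and -0.50 ± 0.07 at 24 h (limma adjusted p = 1.03e-05, 0.0132 and 6.13e-05), so the sources differed in the side of Batf3 from 0 h at 6 and 12 h. Between times they had the same side, with 0.33 on the arrays and 0.42 in the table for 12 h against 6 h and -0.86 and -0.29 for 24 h against 12 h, all under 2-fold.

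Zbtb46 encodes a zinc finger factor that marks conventional dendritic cells and their committed precursors. Its brighter probe read -1.32, -1.45 and -1.30 at 0 h, -0.24, -0.32 and -0.08 at 6 h, -0.08, -0.20 and -0.11 at 12 h, and -1.29, -1.21 and -1.24 on the arrays labelled 24 h. The 6 and 12 h arrays overlapped each other and lay apart from both other groups. Zbtb46 rose 2.21-fold at 6 h (1.14 ± 0.07, limma adjusted p = 1.21e-07, n = 3 per group) and 2.34-fold at 12 h (1.23 ± 0.07, limma adjusted p = 5.72e-08). With normexp background correction on the median signal, a setting added after the files were seen, the change was 0.87 at 6 h and 0.91 at 12 h and missed 2-fold.

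The table gave Zbtb46 ratios of 1.06, 0.937 and 1 at 0 h, 2.13, 2.08 and 2.14 at 6 h, 1.31, 1.28 and 1.27 at 12 h, and 0.830, 0.861 and 0.909 at 24 h. The peak at 6 h stood alone, and the columns at 24 h lay below all 3 columns at 0 h. Zbtb46 rose 2.12-fold at 6 h in the table (1.08 ± 0.06, limma adjusted p = 4.36e-08), or by 0.96 with each column centred on its median, which misses 2-fold. Its change was 0.36 ± 0.06 at 12 h and -0.21 ± 0.06 at 24 h, and its second probe gave 1.11 and 1.16 on the arrays at 6 and 12 h and 1.20 in the table at 6 h.

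**Figure D2:**
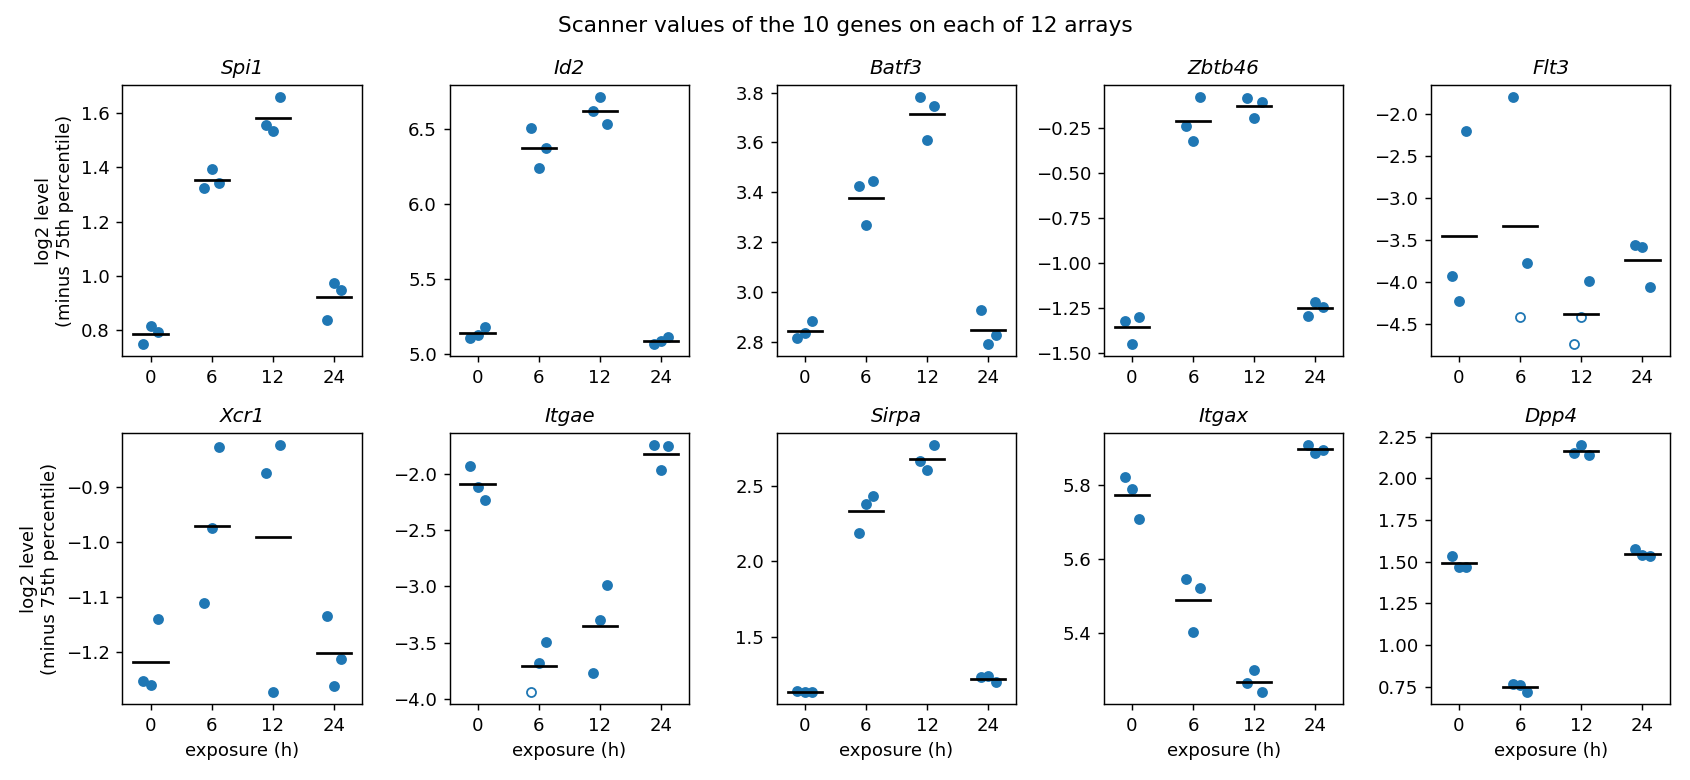
Scanner level of each gene on each of the 12 arrays (y axis, log2 minus the array's 75th percentile) by hours of exposure (x axis). Points are arrays, bars are means of 3, open points were not well above background, and each panel has its own y scale that does not start at 0. Spi1, Id2, Batf3, Zbtb46 and Sirpa stand higher at 6 and 12 h, Itgae and Itgax lower, and Dpp4 has its lowest level at 6 h and its highest at 12 h.

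Flt3 is the receptor for Flt3 ligand and is carried by dendritic cell precursors and conventional dendritic cells. Its probe was dim, well above background on 3, 2, 1 and 3 arrays at 0, 6, 12 and 24 h. The levels were -3.92, -4.22 and -2.20 at 0 h, -1.80, -4.41 and -3.78 at 6 h, -4.73, -4.41 and -3.99 at 12 h, and -3.56, -3.58 and -4.06 at 24 h. Every later group overlapped 0 h, and 0 h replicate 3 and 6 h replicate 1 stood well above the other arrays of their groups. The change was 0.12 ± 0.68 at 6 h, -0.93 ± 0.68 at 12 h and -0.29 ± 0.68 at 24 h (limma adjusted p = 0.884, 0.235 and 0.874, n = 3 per group). With the slide as a block the 6 h change was 1.65, which rests on 6 h replicate 1 alone, and it was not called.

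Deposited Flt3 ratios were 1.11, 0.435 and 1 at 0 h, 3.05, 2.51 and 2.69 at 6 h, 9.37, 7.95 and 7.38 at 12 h, and 14.4, 16.1 and 18.7 at 24 h. These columns climbed with time, and no group overlapped another. Flt3 rose 3.50-fold at 6 h (log2 change 1.81 ± 0.30, limma adjusted p = 0.000305, n = 3 per group), 10.5-fold at 12 h (3.39 ± 0.30, limma adjusted p = 2.46e-06) and 20.8-fold at 24 h (4.38 ± 0.30, limma adjusted p = 3.64e-07) in the table. It was the gene with the largest table rise among the 10 at each time and had no call on the arrays. Flt3l, which encodes its ligand, had a log2 change of -0.83 at 6 h on the arrays, short of 2-fold, and fell by 1.31 on the log2 scale at 6 h in the table.

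Xcr1 encodes the receptor for the chemokine XCL1 and marks type 1 conventional dendritic cells. Its levels were -1.25, -1.26 and -1.14 at 0 h, -1.11, -0.97 and -0.83 at 6 h, -0.87, -1.27 and -0.82 at 12 h, and -1.13, -1.26 and -1.21 at 24 h. The 12 h and 24 h arrays overlapped 0 h, and 12 h replicate 2 was the lowest of its group. The change was 0.25 ± 0.12 at 6 h and 0.23 ± 0.12 at 12 h (limma adjusted p = 0.0796 and 0.0987, n = 3 per group), and neither passed the test. Xcr1 ratios in the table were 1, 1.06 and 0.909 at 0 h, 1.92, 1.17 and 1.63 at 6 h, 1.55, 1.63 and 1.28 at 12 h, and 1.02, 1.26 and 0.893 at 24 h. Columns at 6 and 12 h lay above 0 h, with changes of 0.64 ± 0.18 and 0.58 ± 0.18 (limma adjusted p = 0.01 and 0.0159), both under 2-fold. A second probe of Xcr1 was well above background on 1 of 12 arrays, 12 h replicate 2, and did not pass the filter, and Xcl1, which encodes the ligand, was not well above background on any array.

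Itgae encodes the αE integrin chain CD103, which pairs with the β7 chain and binds E-cadherin. Its levels were -1.93, -2.11 and -2.23 at 0 h, -3.94, -3.68 and -3.49 at 6 h, -3.77, -3.30 and -2.99 at 12 h, and -1.75, -1.96 and -1.76 on the arrays labelled 24 h. Arrays at 6 and 12 h lay below 0 h without overlap, and 6 h replicate 1 was not well above background. Itgae fell at both times, with log2 changes of -1.61 ± 0.19 at 6 h and -1.26 ± 0.19 at 12 h, 3.06-fold and 2.39-fold lower than at 0 h (limma adjusted p = 2.23e-05 and 0.000131, n = 3 per group). Normexp background correction gave -0.75 and -0.54, below 2-fold. A slide term in the fit gave -1.85 at 6 h and -1.79 at 12 h, but both values rest on 6 h replicate 1, the array not well above background and the only later array on the slide of 0 h.

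The Itgae ratios in the table were 1, 0.958 and 1.05 at 0 h, 0.0326, 0.0466 and 0.0303 at 6 h, 0.0855, 0.0868 and 0.0735 at 12 h, and 0.0630, 0.0792 and 0.0704 at 24 h. All 9 later columns were far below 0 h, and 6 h was the lowest. This was the largest change of any of the 10 genes at 6 h in the table, 27.9-fold lower (-4.80 ± 0.15, limma adjusted p = 1.19e-09), with 12.3-fold lower at 12 h and 14.2-fold lower at 24 h. Both partners of CD103 fell in both sources at 6 and 12 h. Itgb7, the β7 chain, had log2 changes of -2.27 and -2.10 on the arrays at 6 and 12 h, and of -1.70 and -2.84 in the table. Cdh1, which encodes E-cadherin, had -1.99 and -1.12 on the arrays and -5.35 and -6.11 in the table. The change of -6.11 comes near the lowest ratio that the table holds, 0.01.

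**Figure D3:**
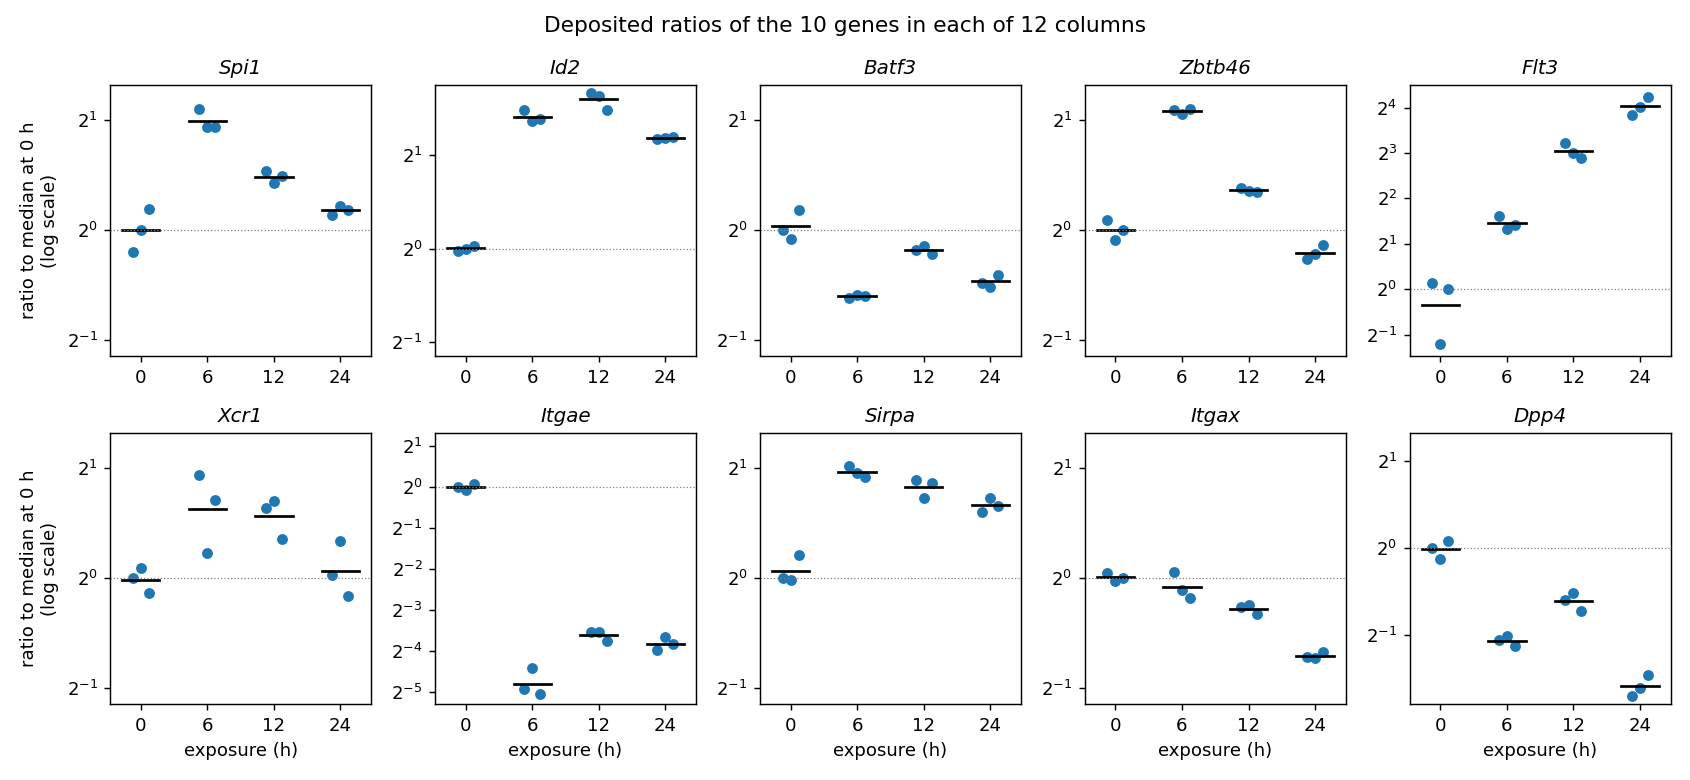
Deposited ratio of each gene to its median at 0 h in each of the 12 columns of the value table (y axis, log scale in powers of 2) by hours of exposure (x axis). Points are columns, bars are means of 3 on the log scale, the dotted line is a ratio of 1, and each panel has its own y scale. Itgae lies between 0.0303 and 0.0868 at every later time, Flt3 climbs to between 14.4 and 18.7 at 24 h, and Id2 lies between 2.26 and 3.17 from 6 h on.

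Sirpa encodes SIRPα, an inhibitory receptor for CD47 that marks type 2 conventional dendritic cells and is also carried by macrophages. Its levels were 1.14, 1.14 and 1.13 at 0 h, 2.19, 2.38 and 2.43 at 6 h, 2.67, 2.61 and 2.77 at 12 h, and 1.23, 1.24 and 1.20 at 24 h. No group overlapped another, and 12 h was the highest. Sirpa rose 2.3-fold at 6 h (1.20 ± 0.06, limma adjusted p = 5.58e-08, n = 3 per group) and 2.92-fold at 12 h (1.55 ± 0.06, limma adjusted p = 6.34e-09).

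Sirpa had table ratios of 1, 0.990 and 1.15 at 0 h, 2.03, 1.94 and 1.90 at 6 h, 1.86, 1.66 and 1.82 at 12 h, and 1.52, 1.66 and 1.58 at 24 h. All later columns were above 0 h, with 6 h the highest. The changes were 0.90 ± 0.07, 0.76 ± 0.07 and 0.60 ± 0.07 at 6, 12 and 24 h (limma adjusted p = 1.38e-06, 4.68e-06 and 3.27e-05), all under 2-fold, so the size of the difference and not its side kept Sirpa from a call there. Cd47, its ligand, rose by 1.11 on the log2 scale at 12 h on the arrays and had -0.23 in the table. Ptpn6 and Ptpn11, the phosphatases that SIRPα binds, were called in neither source, with changes between -0.10 and 0.77 over the 3 times.

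Itgax encodes the αX integrin chain CD11c, the usual surface mark of mouse dendritic cells, which pairs with the β2 chain. Its levels were 5.82, 5.79 and 5.71 at 0 h, 5.55, 5.40 and 5.52 at 6 h, 5.27, 5.30 and 5.24 at 12 h, and 5.91, 5.89 and 5.90 at 24 h. Arrays at 6 and 12 h were below 0 h and those at 24 h above it, all without overlap. The change was -0.28 ± 0.05 at 6 h and -0.51 ± 0.05 at 12 h (limma adjusted p = 0.000348 and 4.03e-06, n = 3 per group), under 2-fold, while quantile normalization gave -1.06 at 12 h, which was called. Itgax ratios in the table were 1.03, 0.983 and 1 at 0 h, 1.04, 0.925 and 0.880 at 6 h, 0.831, 0.841 and 0.798 at 12 h, and 0.608, 0.603 and 0.625 at 24 h. They stepped down with time, with overlap at 6 h, to a change of -0.72 ± 0.06 at 24 h (limma adjusted p = 2.26e-06). Itgb2, the β2 chain, was not called at any time in either source, with changes from -0.16 to 0.85.

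Dpp4 encodes CD26, a surface peptidase that in human cells also binds adenosine deaminase, and it is used to separate conventional dendritic cells from macrophages. Its brightest probe read 1.53, 1.47 and 1.47 at 0 h, 0.76, 0.76 and 0.72 at 6 h, 2.15, 2.20 and 2.14 at 12 h, and 1.57, 1.54 and 1.53 on the arrays labelled 24 h. The 6 h arrays were lowest and the 12 h arrays highest, so that Dpp4 alone of the 10 genes lay below 0 h at 6 h and above it at 12 h without overlap. The change was -0.74 ± 0.04 at 6 h and 0.67 ± 0.04 at 12 h (limma adjusted p = 2.56e-08 and 4.46e-08, n = 3 per group), each under 2-fold.

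Dpp4 ratios in the table were 1, 0.917 and 1.06 at 0 h, 0.477, 0.493 and 0.457 at 6 h, 0.658, 0.696 and 0.603 at 12 h, and 0.305, 0.325 and 0.363 at 24 h. All later columns were below 0 h, and 24 h was the lowest. Dpp4 fell at 6 and 24 h, with log2 changes of -1.06 ± 0.08 and -1.58 ± 0.08 (limma adjusted p = 1.08e-06 and 4.63e-08), with -0.60 ± 0.08 at 12 h. Quantile normalization of the columns gave -0.86 at 6 h, below 2-fold. Ada, the mouse gene for adenosine deaminase, had -0.76 at 6 h on the arrays and fell by 1.17 in the table.

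Dpp4 had 3 probes, and they shared the dip and the later rise on the arrays. The second probe gave -0.80 at 6 h and 0.73 at 12 h, and the third gave -1.45 at 6 h, which was called, and 0.23 at 12 h. The third probe was dim and read -1.92 on 0 h replicate 3, against -3.17 and -3.13 on the other arrays at 0 h. In the table all probes gave -1.06, -1.17 and -1.14 at 6 h and -1.58, -1.73 and -1.92 at 24 h, all called.

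Comparing 12 h with 6 h asked what changed between these times. On the arrays Dpp4 was the 1 gene called of the 10, higher by 1.42 ± 0.04 (limma adjusted p = 1.57e-09, n = 3 per group), where 6.99% of all genes were called, 4.88% higher and 2.1% lower. All 3 Dpp4 probes passed, with 1.42, 1.53 and 1.68, and within the slide that held both times the change was 1.44. The table called Itgae (1.19 ± 0.15, limma adjusted p = 0.000131) and Flt3 (1.58 ± 0.30, limma adjusted p = 0.00158) higher at 12 h than at 6 h, where 5.8% of all genes were called, 3.07% higher and 2.73% lower. Dpp4 changed by 0.45 ± 0.08 there, and quantile normalization took the Flt3 call away at 1.27.

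Samples labelled 24 h were also set against those at 12 h. On the arrays Id2, Sirpa and Zbtb46 were lower (-1.53 ± 0.07, -1.46 ± 0.06 and -1.12 ± 0.07) and Itgae was higher (1.53 ± 0.19), with limma adjusted p between 9.9e-09 and 3.01e-05, n = 3 per group, where 31% of all genes were called. The level of each of these genes at 24 h was close to that at 0 h, as described above. Within the slide that held both labels the changes were -1.45, -1.55, -1.14 and 1.16 in the same order, resting on 12 h replicate 3. In the table limma called none of the 10 at both thresholds, against 4.57% of all genes (1.4% higher and 3.17% lower), although 9 had an unadjusted p under 0.05. Flt3 at 0.99 ± 0.30 and Dpp4 at -0.98 ± 0.08 came closest to 2-fold there, and each passed when either of 2 single columns was left out (Flt3 at 1.09 without 12 h replicate 1 and 1.08 without 24 h replicate 1, Dpp4 at -1.04 without 12 h replicate 3 and -1.05 without 24 h replicate 3).

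Regulators around the 4 member factors were taken as a list of 27 transcription factors of dendritic cells, all of them tested. At 6 h 11 rose and 5 fell on the arrays (10.2% and 15.9% of all genes), and 12 rose and 4 fell in the table (13.3% and 11.8%). At 12 h 13 rose and 4 fell on the arrays (13.7% and 16.9%), and 11 rose and 4 fell in the table (15.7% and 12.1%). None was called on the arrays labelled 24 h, where limma called 154 of all genes, and 6 rose and 5 fell in the table (13.3% and 13%). The list's median change was 0.79 at 6 h and 0.91 at 12 h on the arrays and 0.84 and 0.76 in the table, against -0.06, -0.03, 0.14 and 0.22 over all genes.

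Irf8, the factor of type 1 cells that partners Batf3 and PU.1, rose in both sources. Its changes were 1.58 and 2.16 on the arrays and 1.02 and 1.73 in the table at 6 and 12 h (log2 scale). A second probe of Irf8 had table ratios of 1.96, 1.82 and 1.98 at 6 h, all under 2, against 1, 0.926 and 1.08 at 0 h. Irf4, the counterpart of Irf8 in type 2 cells, went to opposite sides. It had 0.84 at 6 h and 1.79 at 12 h on the arrays, the second called, and fell in the table, with -2.09 and -2.38. Its level at 12 h was 1.73, 2.08 and 1.70 on the arrays, against 0.01, 0.10 and 0.05 at 0 h, while its ratios in the table were 0.208, 0.195 and 0.180 at 12 h, against 1.04, 1 and 0.977 at 0 h.

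Other factors rose in both sources, though by different amounts. Gfi1, a transcriptional repressor, rose by 3.50 and 4.21 on the arrays and by 2.45 and 1.07 in the table at 6 and 12 h. Batf, which can stand in for Batf3, rose by 3.21 and 4.02 on the arrays and by 1.82 and 1.69 in the table. Stat5a, which signals downstream of the GM-CSF receptor, rose by 3.02 and 3.1 and by 2.61 and 2.12 in the same order. Relb, an NF-κB subunit of dendritic cells, rose by 1.11 and 1.62 on the arrays and by 3.12 and 3.07 in the table.

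Klf4, a zinc finger factor of monocytes and of a type 2 subset, fell in both sources, by changes of -2.64 and -3.13 on the arrays and -2.49 and -2.39 in the table. The other inhibitors of E proteins differed between the sources. Id3 fell on the arrays, with -3.47 and -1.92 at 6 and 12 h, and rose by 3.84 and 3.68 in the table. Id1 had 0.40 and 0.14 on the arrays, with no call, and fell in the table, with -2.58 and -3.32. Spib, a factor close to PU.1, fell on the arrays, with -1.74 and -2.63, and had 0.88 and 1.13 in the table, of which the second was called higher.

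A list of 18 partners and ligands of the 10 genes had 17 tested, with Xcl1 left out as dim. At 6 h 3 rose and 3 fell on the arrays (10.2% and 15.9% of all genes), and 3 rose and 5 fell in the table (13.3% and 11.8%). At 12 h 5 rose and 3 fell on the arrays (13.7% and 16.9%), and 1 rose and 3 fell in the table (15.7% and 12.1%). Its medians lay between -0.09 and 0.09 at these times. Of the E proteins bound by Id2, Tcf4 rose by 1.65 and 2.04 on the arrays and by 1.52 in the table at 6 h, with 0.73 at 12 h there, and neither Tcf3 nor Tcf12 was called. Junb, a JUN partner of Batf3, rose by 1.37 and 1.60 on the arrays and by 1.04 in the table at 6 h, with 0.73 at 12 h. Jun was called once, higher by 1.31 in the table's columns labelled 24 h, and Jund not at all. Adk, an adenosine kinase listed beside Ada, fell on the arrays, with -1.05 and -1.21, and had -0.85 and -0.68 in the table.

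Other genes used to mark conventional dendritic cells mostly fell among those called. Of a list of 37, 34 had a probe and 31 were tested. On the arrays 4 rose and 15 fell at 6 h (10.2% and 15.9% of all genes), and 5 rose and 15 fell at 12 h (13.7% and 16.9%). The counts of the table were 5 higher and 12 lower at 6 h (13.3% and 11.8%) and 7 higher and 13 lower at 12 h (15.7% and 12.1%). The medians were -0.995 and -0.98 on the arrays and -0.57 and -0.67 in the table, below those of all genes given above. At 24 h 1 of the 31 fell on the arrays (Snx22, by 1.17), against 0.141% of all genes, and 8 rose and 16 fell in the table, against 13.3% and 13%. The type 2 marker list summed to between 41.3 and 42.8 times the 75th percentile at 0 h, 19.2 to 20.6 at 6 h, 22.7 to 22.98 at 12 h and 38.7 to 39.1 on the arrays labelled 24 h. This stands beside the monocyte sums given above. The bright lectins Mgl2 and Clec10a make up most of the drop of the type 2 sum. Of its 8 genes tested, 3 were lower on the arrays at 6 and at 12 h (Mgl2, Clec10a and Cd209a) and 2 higher (Sirpa and Esam at 6 h, Sirpa and Irf4 at 12 h), with a median change of 0.06 and -0.16. Esam was dim, well above background on 2, 3, 2 and 1 arrays at 0, 6, 12 and 24 h. The value table had 4 of them lower at 6 h and 5 at 12 h, Irf4 included, and Esam higher at both times. The type 1 list summed to between 88.8 and 89.96 at 0 h, 67.7 to 75.3 at 6 h and 86.9 to 88.2 at 12 h. Of its 9 genes tested, 5 were lower on the arrays at 6 and at 12 h, with 1 higher at 6 h and 2 at 12 h. Itgae, Batf3 and Xcr1 of this list belong to the 10 genes, so its shift is not separate from theirs. The lower genes included Itgae, and Clec9a, which was not well above background on any array at 0, 6 or 12 h. The list's median change was -1.07 and -1.26, the second being the change of Itgae itself. The table had 3 of the 9 lower and 1 higher at 6 h, and 2 lower and 2 higher at 12 h. The part of these shifts of the lists in the counts was not tested.

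The named falls were called in both sources at both times. Hepacam2 had log2 changes of -4.26 and -4.05 on the arrays at 6 and 12 h and of -4.99 and -5.27 in the table. Clec10a, a lectin of type 2 cells, had -3.30 and -3.85 on the arrays and -4.59 and -6.2 in the table. Kmo, an enzyme of tryptophan breakdown, had -3.28 and -1.26 on the arrays and -4.03 and -6.08 in the table. Cd209a, a lectin of type 2 and monocyte-derived cells, was lower at 6 and 12 h (limma adjusted p = 4.24e-05 and 3.31e-05). It was not well above background on any array at these times. With its dim values raised to the dimmest spot well above background on each array, it was 4.38-fold and 5.32-fold lower than at 0 h. The background limit differs between spots, so these folds are not firm lower bounds. Cd209a had -6.63 and -6.66 in the table. Mgl2, a related lectin, had -1.59 and -1.67 on the arrays and -2.52 and -4.61 in the table. The lowest ratio in the table was 0.01. The table changes of Cd209a lie at or close to that limit, so its fall may be larger than they show. Those of Clec10a and Kmo at 12 h also come near it.

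Some genes of this list rose. Traf1, an adaptor of TNF receptors, rose by 2.97 and 3.63 on the arrays and by 4.37 and 4.50 in the table. Slamf7, a receptor of the SLAM family, rose by 3.29 and 3.57 and by 3.66 and 3.44 in the same order. Btla, an inhibitory receptor found on type 1 cells, rose by 1.22 and 3.04 on the arrays and had 0.51 and 0.26 in the table. Dtx1, a regulator of Notch signalling, rose by 2.07 and 2.77 in the table and had 0.13 and -0.21 on the arrays, where it was dim. Clec9a was among the genes called lower on the arrays at 6 and 12 h, although it was below background there and at 0 h.

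**Figure D4:**
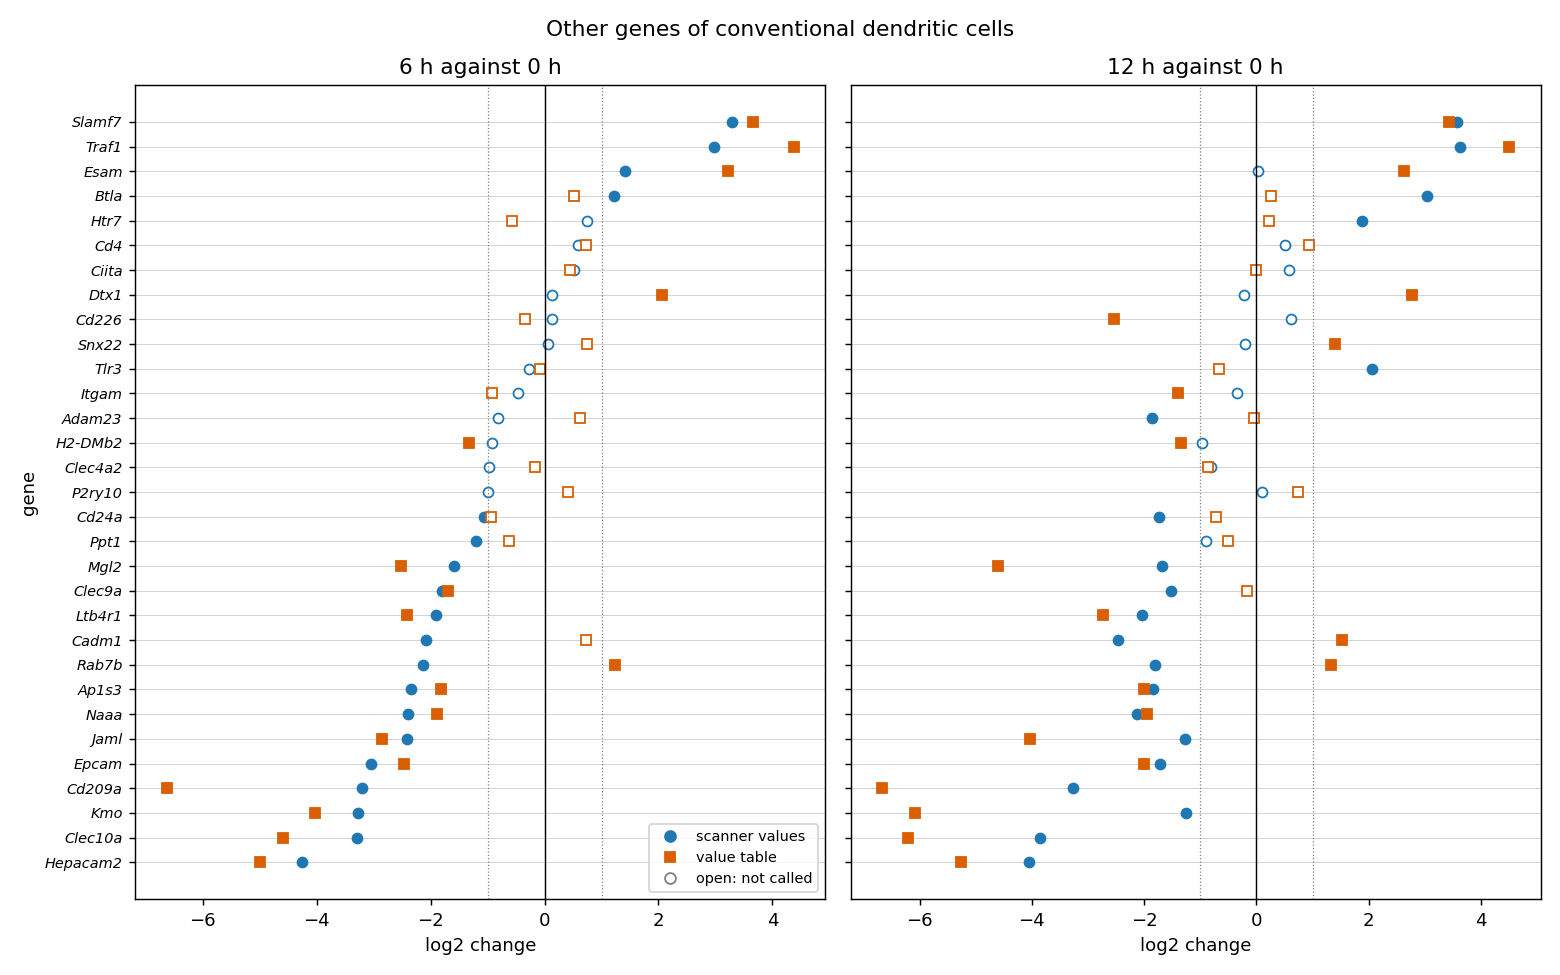
Log2 change of the 31 tested genes of the list of other conventional dendritic cell genes at 6 and 12 h against 0 h (x axis), ordered by the scanner change at 6 h. Circles are scanner values, squares are the value table, and open symbols are not called. Slamf7 and Traf1 stand to the right of 0 and Hepacam2, Clec10a, Kmo and Cd209a to the left in both sources, while the scanner values of Clec9a, Cd209a and, at 6 h, Epcam rest on spots below background.

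The genes whose array profile was most like that of each member were taken by Pearson's r over the 12 arrays, out of 11583 genes with a symbol. The arrays form 2 clusters, 6 and 12 h against 0 and 24 h, so r mainly reads the step between them, and it is given as a description. Zbtb46 was most like Pdgfa (r = 0.998), Slc40a1 and Stam2, Id2 most like Asb6 (0.999), with Vamp3 among its 3 most like, and Sirpa most like Ikbke (0.997), Ass1 and Cd80. Above r of 0.95 lay 1533 genes for Zbtb46, 1633 for Id2 and 1443 for Sirpa. Batf3 was most like Kctd10 (0.995), Ergic1 and Tbc1d10a, Spi1 most like Caml (0.993), Rap1gap2 and Ap1g1, Itgae most like Adgrg5 (0.992), 1700010I14Rik and Ppm1j, and Itgax most like Ankrd46 (0.992), Trappc1 and Rpl14.

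The profile of Dpp4, with its dip at 6 h and its rise at 12 h, was shared at that level by 88 genes, led by Ly6e (r = 0.998), Tpst1 and Bambi. Xcr1 and Flt3 had none above 0.95. Xcr1 was most like Irx4 (0.916), Sap130 and Sntb1, and Flt3 was most like Srsf6 (0.826), Slc7a4 and Cr1l.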

How the data were processed

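Cy3-labelled RNA of 12 samples was measured on Agilent mouse 1-colour arrays. The scanner files deposited by the authors hold intensity values of 45018 spots each, from Agilent Feature Extraction 9.1.3.1 per the submitters' processing notes, and per the file headers the processed signal is background-subtracted and detrended. The value table deposited by the authors holds, judged from its values, a linear ratio to the median at 0 h, with a lowest value of 0.01. How its columns were scaled is stated in no source used here, nor is a genome build of the authors. Promoter coordinates are those of the RefSeq table.

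The log2 of each spot minus the array's 75th percentile of non-control spots was averaged per probe, without 732 outlier spots. Probes well above background on every array of at least 1 group were kept, and a gene was read from its brightest kept probe, which left 18407 genes. Names came from RefSeq accessions, which named 22951 of 41174 probes. The 4 group means were fitted at once with limma 3.58.1 (R 4.3.3, with files read by data.table, version 1.17.8), with 8 residual degrees of freedom and Benjamini-Hochberg adjustment over all genes. The log2 table ratios were fitted alike, and the fit was tested on simulated data. The number of arrays limits the precision.

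The 10 genes, the gene lists and the tests were chosen with earlier results of these data known. Of each list, up to 3 of the largest rises and of the largest falls past the threshold in either source were named, together with partners and ligands of the 10 genes, and the 3 genes most like each, of which 1 is not reported here. Settings tried were normexp background correction, quantile normalization, outlier spots kept, no filter, the mean of a gene's probes, the slide and the replicate number as blocks, centred columns, each sample left out in turn, and the samples labelled 24 h left out. The files hold no mean spot signal, so normexp used the median signal, a change made after they were seen.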

Additional observations from a re-analysis of the deposited data

How the results depend on the processing

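The 10 genes kept their calls under most settings. On the arrays, keeping outlier spots, no filter, the mean of a gene's probes, the slide as a block, each array left out in turn and the arrays labelled 24 h left out changed no call of the 10 genes, and with the slide as a block each change from 0 h rests on 6 h replicate 1. The replicate block left the counts at 4, 4, 0, 1, 4 and 4 on the arrays (6, 12 and 24 h against 0 h, 12 h against 6 h, 24 h against 12 h, time course) and at 5, 3, 4, 2 and 0 in the table, and changed no call of the 10 genes. The numbers were not taken to pair the samples. Deviations from the group means correlated above 0.1 in 2 of 18 same-number pairs of arrays (r from -0.09 to 0.16) and in 1 of 18 pairs of table columns, and 5 of 12 arrays correlated best with their own number.

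Normexp left 2 genes called at 6 h, 12 h, 24 h against 12 h and over the time course, against 4 each, and the calls lost were those of Zbtb46 and Itgae. The value table in place of the arrays gave 4 at 24 h against 0, 2 for 12 h against 6 h against 1, and 0 for 24 h against 12 h against 4. Signs turned in the table for Flt3 at 12 h (3.39), at 24 h (4.38) and for 12 h against 6 h (1.58), for Id2 (1.18), Itgae (-3.83) and Dpp4 (-1.58) at 24 h, and for Itgae for 24 h against 12 h (-0.21), each called in 1 source. Below 2-fold, both sources had an adjusted p under 0.05 with opposite signs for Batf3 at 6 h (-0.64 in the table) and 12 h (-0.22), Dpp4 at 12 h (-0.60), Spi1 for 12 h against 6 h (-0.51) and Itgax for 24 h against 12 h (-0.43). The cause was not tested. Within the table, centred columns gave 1 for 24 h against 12 h, quantile normalization gave 3 at 6 h against 5 and 1 for 12 h against 6 h against 2, and leaving out single columns gave 0 to 1 for 24 h against 12 h. Quantile normalization also took Id2 at 24 h to 0.96 and Zbtb46 at 6 h to 0.89 in the table, and for 24 h against 12 h on the arrays Id2 to -0.94 and Itgax to 1.19, while normexp took Zbtb46 to -0.91 and Itgae to 0.70 there. Leaving out single arrays moved Flt3 at 6 h between -0.65 and 0.74, and its slide block value at 12 h was 1.17.

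Counts over all genes moved by over 1.5 times with normexp (2577, 3064, 8, 577, 3155 and 3572 against 4800, 5632, 154, 1286, 5714 and 6648), with quantile normalization of the table at 12 h, 24 h, 12 h against 6 h and 24 h against 12 h (3288, 3167, 396 and 270 against 5116, 4835, 1067 and 841), and at 24 h on the arrays with no filter (96), the slide block (23), the replicate block (86) and single arrays left out (24 to 291). The value table in place of the arrays gave 4835 at 24 h and 841 for 24 h against 12 h. Dim probes limit Flt3, Itgae and the second Xcr1 probe.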
